A study of Homo sapiens with 12 samples.

Results

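The 10 genes described here encode translation elongation factors and other proteins whose mRNAs are commonly counted as TOP mRNAs: EEF1A1, EEF1B2, EEF1D, EEF1G, EEF2, TPT1, NAP1L1, HNRNPA1, VIM and RACK1. A gene was taken as measured where at least 1 probe set of the array was annotated with its symbol alone, and its main probe set was the one with the highest mean log2 intensity over the 12 arrays of the series. This left 7 of the 10 genes, with 29 probe sets, out of 19775 genes measured in all. EEF1B2 and EEF1G have probe sets that also carry a second symbol, and no listed probe set carried RACK1 or its older symbol GNB2L1, so these 3 genes were not analysed here. The main probe sets of the 7 measured genes lay above the filter on low values (a log2 intensity of at least 6 in at least 4 arrays) on all 12 arrays, and 10157 genes passed that filter in all.

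A TOP mRNA begins with a cytidine at the cap followed by an unbroken run of pyrimidines, the 5′ terminal oligopyrimidine tract. Its translation is known to follow mTOR signalling, in part through LARP1, a protein that binds the cap and the tract when mTOR is inactive. Ribosomal proteins and elongation factors are the best known products of such mRNAs, so that the translation machinery is made when cells grow. eIF4G1 is the scaffold of the cap-binding complex, where it joins the cap-binding protein eIF4E to the helicase eIF4A and to the small ribosomal subunit.

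The study asked how mRNAs are distributed over polysomes in MCF10A cells when eIF4G1 is silenced and when cells are irradiated. The labels give breast cancer as the origin of MCF10A, which is usually known as a line of non-tumorigenic breast epithelium. The arrays held RNA of eIF4G1 knockdown cells irradiated with 10 Gy, knockdown cells mock-treated, wild-type (WT) cells irradiated with 10 Gy and WT cells mock-treated. From each of these 4 conditions 3 preparations were hybridised, namely heavy polysomes (HMW), light polysomes (LMW) and RNA extracted without sorting of polysomes (Total), with 1 array each. The hairpin was induced with doxycycline, and the sources used here give neither the hairpin or doxycycline status of WT cells nor the time between irradiation and harvest. Ribosome numbers are given for the pools of mock-treated WT cells, 4 or more in HMW and 1 to 3 in LMW. Nothing states that the samples came from separate cultures, so the spread behind each p-value is that of these samples alone and may be technical. Where preparations are compared, it is how their difference varied over the 4 conditions. It then includes any effect of knockdown or 10 Gy on that difference. Where knockdown or 10 Gy is compared, the gene's own spread is the difference between genotypes in the 10 Gy response. In every comparison the test (limma) also draws on the spread of other genes, with a weight given as prior degrees of freedom. For preparations this weight was 3.96 to 5.47, against 3 of the gene's own. For knockdown or 10 Gy it was 8.62 in Total, 27.1 for the heavy-to-light difference and infinite in LMW and HMW, against 1. Those p-values therefore rest mostly on the spread of other genes.

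For 8 of the 10 genes an annotated transcription start was read from the promoter table drawn from RefSeq (GRCh38.p14). For 6 of the 8 at least 1 start read as a TOP start, here a C at the first base followed by at least 4 more pyrimidines. These 30 bases run 5′ to 3′ on the gene's strand, 10 before the annotated start and 20 from it, and capitals mark the pyrimidine run that begins at the start. The first 4 are shown because their mRNAs differed between preparations, and VIM because its heavy-to-light difference was lower after the knockdown, as that of EEF2 was, without such a run at its annotated start:
EEF1A1 (chr6:73521013-73521042, minus strand): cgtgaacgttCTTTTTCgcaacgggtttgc
EEF2 (chr19:3985444-3985473, minus strand): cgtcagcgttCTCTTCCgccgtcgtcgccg
TPT1 (chr13:45341164-45341193, minus strand): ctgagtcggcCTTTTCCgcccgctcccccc
NAP1L1 (chr12:76084666-76084695, minus strand): gctcttgggtCTTTTTTagcgccatctgct
VIM (chr10:17228231-17228260, plus strand): atcgtgatctgggaggcccacgtatggcgc

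The run was 7 bases long in EEF1A1, EEF2, TPT1 and NAP1L1. RACK1, with a run of 9, and EEF1B2, with a run of 16 at 1 of its 2 listed starts, also read as TOP starts, whereas EEF1G and VIM did not. HNRNPA1 and EEF1D are named only. The same letters stood at 4.07% of the 35116 annotated starts and in 7.60% of the 8409 kept genes of the table, against 46 of 62 ribosomal protein genes and 6 of 8 genes on a list of other TOP mRNAs. A match describes the annotated start and does not show which start MCF10A cells use.

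The knockdown was visible in EIF4G1, whose log2 intensity in Total was 7.46 and 7.35 in knockdown cells (10 Gy and mock), against 9.76 and 10.01 in WT cells (fell by 2.47, adjusted p = 2.26e-06). Heavy polysome arrays correlated with each other at 0.854 to 0.986 over the kept genes, light ones at 0.861 to 0.984 and Total arrays at 0.944 to 0.993. The polysome arrays of mock-treated WT cells stood apart: LMW minus Total went beyond 2-fold for 49.5% of genes there, against 24.9% to 28.2% in the other 3 conditions, and HMW minus Total for 34.2%, against 11.3% to 13.8%. The heavy array of mock-treated WT cells also correlated more closely with the light array of mock-treated knockdown cells (0.941) and that of its own condition (0.931) than with any other heavy array (0.854 to 0.911). All 6 measured basal epithelial markers, KRT5, KRT14, EGFR, CDH3, LAMB3 and ITGB4, were above the filter level on all 12 arrays. Of 6 measured luminal markers KRT8, KRT18 and GATA3 were also above it on all 12, at median log2 intensities of 9.66, 12.85 and 7.75, ESR1 was above it on 6, and KRT19 and PGR on none. KRT19, PGR, PTPRC, CD3E, PECAM1, CDH5, COL1A2, LUM and THY1 stayed below the filter level on every array. Of the other immune and fibroblast markers measured, CD14 reached it on 10 arrays, COL1A1 on 11 and PDGFRB on 7. In such bulk samples fewer cells of a type and less RNA per cell cannot be told apart, and array values show the share of an mRNA within each preparation, not its amount per cell.

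In order to see where these mRNAs sat on polysomes, each preparation was compared with the others over the 4 conditions, which serve as 4 matched pairs. The 7 genes did not move as 1 group. NAP1L1, HNRNPA1 and TPT1 were lower in both polysome pools than in Total, EEF1A1 was lower in LMW, EEF1D was higher in LMW, and EEF2 and VIM were higher in HMW. Called here means an adjusted p (Benjamini-Hochberg over 10157 genes) under 0.05 in limma. For HMW minus Total 5 of the 7 genes were called, 2 higher and 3 lower, where 36.0% of all genes were called (17.4% higher and 18.6% lower). For LMW minus Total it was also 5 of 7, 1 higher and 4 lower, where 56.6% of all genes were called (28.5% higher and 28.1% lower). For HMW minus LMW it was 1 of 7, higher, where 40.7% of all genes were called (19.6% higher). The count for LMW minus Total lies near that background.

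**Figure D1:**
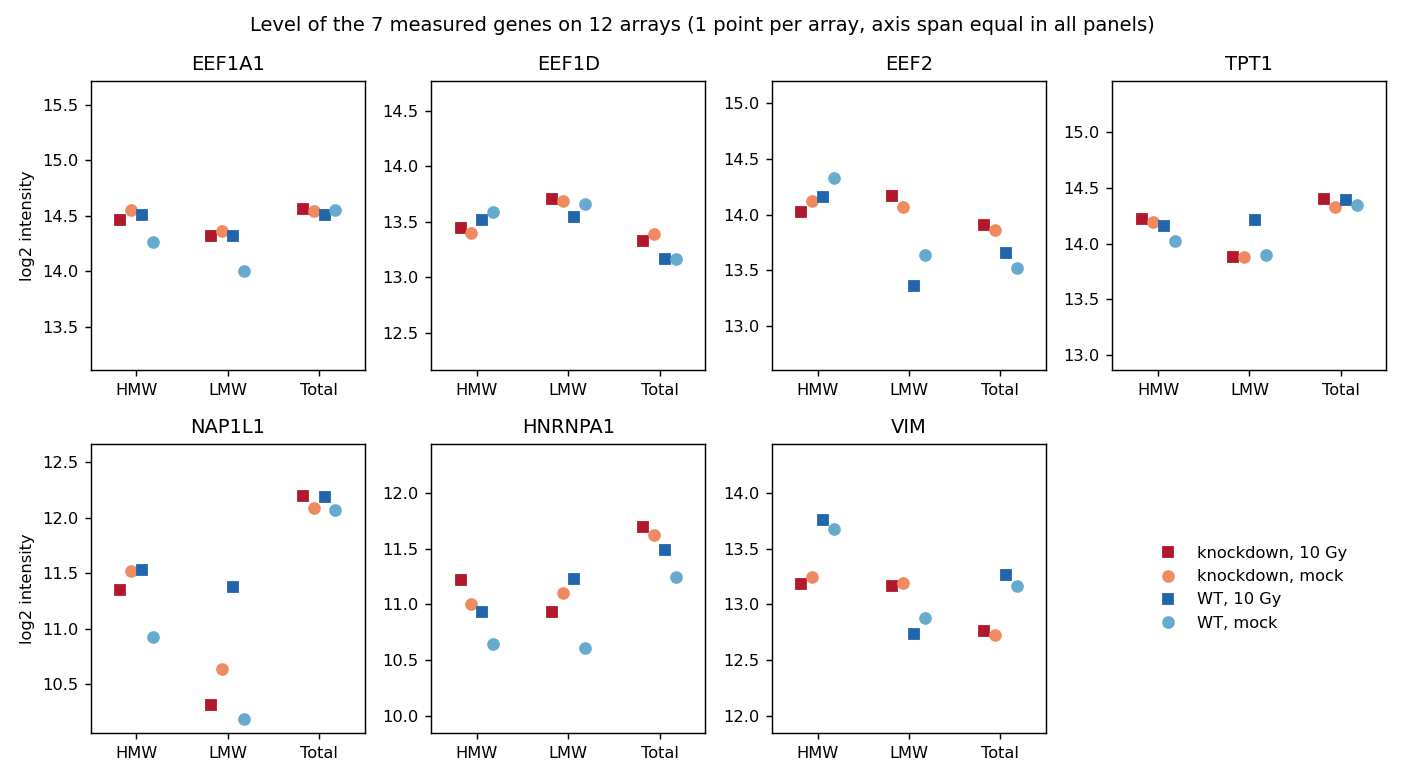
Log2 intensity (vertical axis, the same span in each panel) of the main probe set of the 7 measured genes in heavy polysomes (HMW), light polysomes (LMW) and unsorted RNA (Total), 1 point per array, with knockdown arrays in red and WT arrays in blue, squares for 10 Gy and circles for mock. NAP1L1 shows the widest spread, between 10.19 and 12.19, and EEF1A1 and TPT1 stay close to the top of the scale in every preparation.

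EEF1A1, the GTPase that brings aminoacyl-tRNA to the ribosome, had log2 intensities of 14.46, 14.55, 14.51 and 14.26 in HMW (knockdown 10 Gy, knockdown mock, WT 10 Gy and WT mock, the order used throughout). In LMW they were 14.32, 14.36, 14.32 and 14.00, and in Total 14.56, 14.54, 14.50 and 14.55. The 4 Total values lay within a narrow band above all LMW values, and mock-treated WT cells gave the lowest value of both pools. LMW fell by 0.29 on the log2 scale relative to Total (SE 0.0919, adjusted p = 0.0274). That call was lost without the pair of mock-treated WT cells (−0.20, adjusted p = 0.118), without that of irradiated knockdown cells (−0.30, adjusted p = 0.0575) when arrays were centred on their medians (−0.12, adjusted p = 0.308), with the median of its probe sets (−0.12, adjusted p = 0.206) and without an intensity trend in limma (adjusted p = 0.207). It was kept under 7 of 12 alternatives, 1 of which reads the gene from probe set 227708_at and gave −1.25. HMW minus LMW was above 0 in all 4 conditions, at 0.14 to 0.26, with an adjusted p of 0.0517. Intensities of this probe set reached 24171, close to the highest value on any array, 26385, and the part that the top of the scale plays in these small differences was not tested. Of its other probe sets, 227708_at, at log2 6.64 to 9.21, gave wider differences: HMW minus LMW was 0.65, 0.04, 0.50 and 1.07 there. The next brightest after the main one, 213477_x_at, gave −0.02, 0.24, 0.11 and 0.11. Its LMW minus Total lay between −0.05 and −0.0002, and that of 213583_x_at between −0.10 and −0.003, so these gave smaller differences than the main probe set. On 213614_x_at LMW minus Total was −0.33, −0.28, −0.06 and −0.22.

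EEF1D, a subunit of the exchange factor that recharges eEF1A with GTP, had values of 13.44, 13.40, 13.51 and 13.59 in HMW. They were 13.70, 13.68, 13.54 and 13.66 in LMW and 13.33, 13.39, 13.17 and 13.17 in Total. Every LMW value lay above every Total value. LMW rose by 0.38 relative to Total (SE 0.101, adjusted p = 0.0134), and all 4 EEF1D probe sets were higher in LMW than in Total in all 4 conditions. The dimmest of them, 213087_s_at, read 5.34 to 5.76 in Total, below the filter level of 6, and adds no support. Without the pair of mock-treated WT cells the difference was 0.35, with an adjusted p of 0.0506, and without that of irradiated knockdown cells 0.39, with an adjusted p of 0.0601. The median of the probe sets gave 0.85 (adjusted p = 0.0102), and without the trend the adjusted p was 0.0982. That median averages 203113_s_at with the dimmer 214395_x_at, which read 6.68 to 8.77. Their LMW minus Total was 0.23 to 0.65 and 0.85 to 2.06, so the larger value comes from the dimmer probe set. HMW minus Total was 0.22 (adjusted p = 0.0830) and HMW minus LMW was −0.16 (adjusted p = 0.165).

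EEF2, the GTPase that moves the ribosome along by 1 codon after each peptide bond, had 14.02, 14.12, 14.16 and 14.33 in HMW. It had 14.17, 14.06, 13.36 and 13.63 in LMW, and 13.91, 13.86, 13.65 and 13.52 in Total. The 2 WT arrays were the lowest of LMW and the highest of HMW, so WT pools were far apart and knockdown pools were not. HMW rose by 0.42 relative to Total (SE 0.109, adjusted p = 0.0196), and every HMW value lay above every Total value. Without the pair of irradiated WT cells it was 0.40 with an adjusted p of 0.0979, and without that of mock-treated WT cells 0.30 with an adjusted p of 0.0212. Without the trend the adjusted p was 0.0947. LMW minus Total was 0.07 (adjusted p = 0.617), and HMW minus LMW was 0.35 (adjusted p = 0.133).

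TPT1, which encodes the abundant growth-related protein TCTP, had 14.22, 14.19, 14.16 and 14.03 in HMW. Its values were 13.88, 13.88, 14.21 and 13.90 in LMW and 14.40, 14.33, 14.39 and 14.35 in Total. All Total values lay above all polysome values, and irradiated WT cells had the highest LMW value. TPT1 fell by 0.22 in HMW (SE 0.0567, adjusted p = 0.0204) and by 0.40 in LMW (adjusted p = 0.00786), both relative to Total, and all 5 probe sets were lower in both pools in every condition. Centring the arrays on their medians gave −0.14 for HMW (adjusted p = 0.158) and −0.23 for LMW (adjusted p = 0.0891), so neither was called there, and without the pair of irradiated WT cells HMW gave −0.21 (adjusted p = 0.0818). Without the trend the adjusted p was 0.266 for HMW and 0.0931 for LMW.

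NAP1L1, a histone chaperone, had the widest range of the 7 genes. Its values were 11.35, 11.52, 11.53 and 10.93 in HMW, 10.31, 10.64, 11.37 and 10.19 in LMW, and 12.19, 12.09, 12.19 and 12.07 in Total. No value of Total overlapped with a polysome value, and among the LMW arrays that of irradiated WT cells stood above the other 3. NAP1L1 fell by 1.51 in LMW relative to Total (SE 0.22, adjusted p = 0.00176), a call kept under all 12 alternatives tried (adjusted p 0.000123 to 0.0143). Among these, 1 reads the gene from its dim probe set 1556121_at and adds no support. That probe set had 3.74, 4.11, 6.22 and 4.52 in LMW, mostly below the filter level of 6. NAP1L1 fell by 0.80 in HMW relative to Total (SE 0.129, adjusted p = 0.00363), a call lost on that dim probe set alone. HMW rose by 0.70 relative to LMW (SE 0.164, adjusted p = 0.0151), with pairs of 1.03, 0.88, 0.16 and 0.74. This last call did not hold when the pair of irradiated knockdown cells (adjusted p = 0.0569), mock-treated knockdown cells (adjusted p = 0.0654) or mock-treated WT cells (adjusted p = 0.0680) was left out, or without the condition block (adjusted p = 0.202).

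HNRNPA1, an RNA-binding protein that acts in splicing and mRNA export, had 11.22, 11.00, 10.93 and 10.64 in HMW on its main probe set. It had 10.93, 11.11, 11.23 and 10.60 in LMW and 11.69, 11.63, 11.49 and 11.25 in Total. The Total value was the highest in each condition. HNRNPA1 fell by 0.57 in HMW (SE 0.119, adjusted p = 0.00955) and by 0.55 in LMW (SE 0.177, adjusted p = 0.0282) relative to Total, and HMW minus LMW was −0.02 (adjusted p = 0.919). The LMW call was lost without the pair of mock-treated WT cells (−0.52, adjusted p = 0.0634), irradiated knockdown cells (−0.48, adjusted p = 0.175) or mock-treated knockdown cells (−0.56, adjusted p = 0.116) and with arrays centred on their medians (−0.38, adjusted p = 0.115), and the HMW call without that of irradiated WT cells (−0.57, adjusted p = 0.0537).

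The other 2 HNRNPA1 probe sets read mostly in Total. Probe set 222040_at had log2 intensities of 3.50 to 3.85 in HMW and 3.62 to 3.84 in LMW, against 9.29, 8.88, 8.55 and 8.39 in Total. Probe set 221919_at had 3.37 to 3.69 in HMW and 3.31 to 3.55 in LMW, against 6.12 to 6.58 in Total. All polysome values of these probe sets lay far below the filter level of 6, so these differences from Total have no exact size and are given no test. The position of these probe sets in the gene was not given in the sources used here. MALAT1, a nuclear RNA, reached the filter level on the 4 Total arrays alone, with values of up to 11.55, and KCNQ1OT1, the other measured nuclear RNA, reached it on no array. The polysome lysates were cleared of nuclei, per the series' design text. The part that nuclear RNA plays in the HNRNPA1 readings was not tested.

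**Figure D2:**
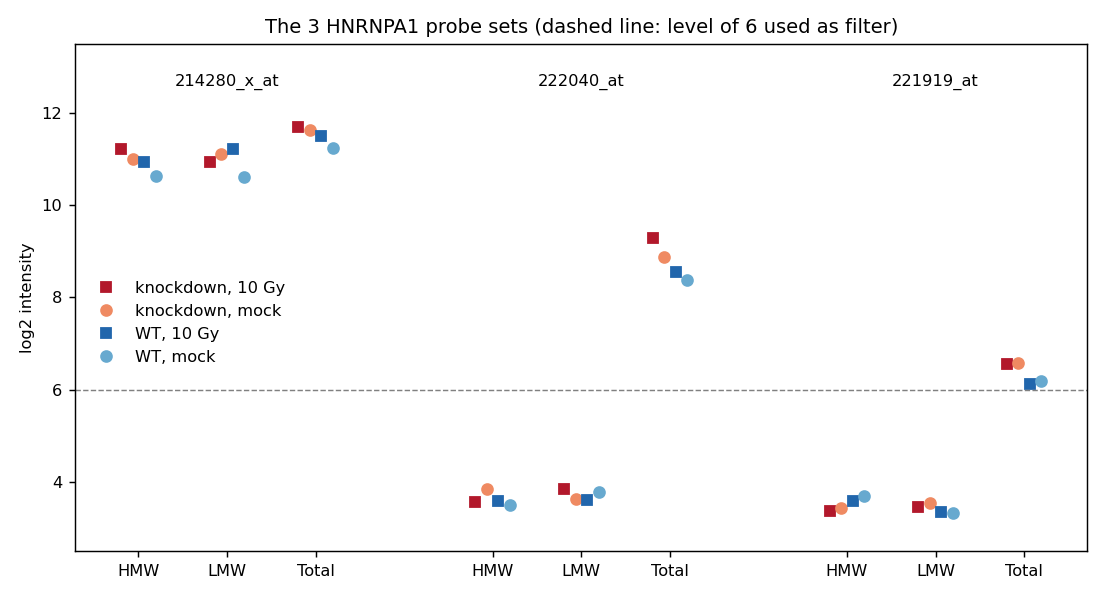
Log2 intensity of the 3 HNRNPA1 probe sets in heavy polysomes (HMW), light polysomes (LMW) and unsorted RNA (Total), 1 point per array, with knockdown in red and WT in blue, squares for 10 Gy and circles for mock, and the filter level of 6 as a dashed line. Probe sets 222040_at and 221919_at lie above the line on the Total arrays alone, where they read 8.39 to 9.29 and 6.12 to 6.58.

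VIM, the intermediate filament protein vimentin, had 13.18, 13.24, 13.76 and 13.68 in HMW. It had 13.17, 13.19, 12.73 and 12.88 in LMW and 12.76, 12.72, 13.26 and 13.16 in Total. As for EEF2, the WT arrays were the 2 highest of HMW and the 2 lowest of LMW. HMW rose by 0.49 relative to Total (SE 0.0707, adjusted p = 0.00251), with 4 pairs between 0.42 and 0.52, and relative to LMW it differed by 0.47 (adjusted p = 0.0814). LMW minus Total was 0.02 on average (adjusted p = 0.948), made up of 0.41 and 0.47 in knockdown cells and −0.53 and −0.28 in WT cells. The other VIM probe set, 1555938_x_at, read between 2.66 and 3.42 on all arrays, near the bottom of the scale, so taking the median of both gave 0.07 for HMW minus Total (adjusted p = 0.738). Without the condition block the adjusted p was 0.0612.

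**Figure D3:**
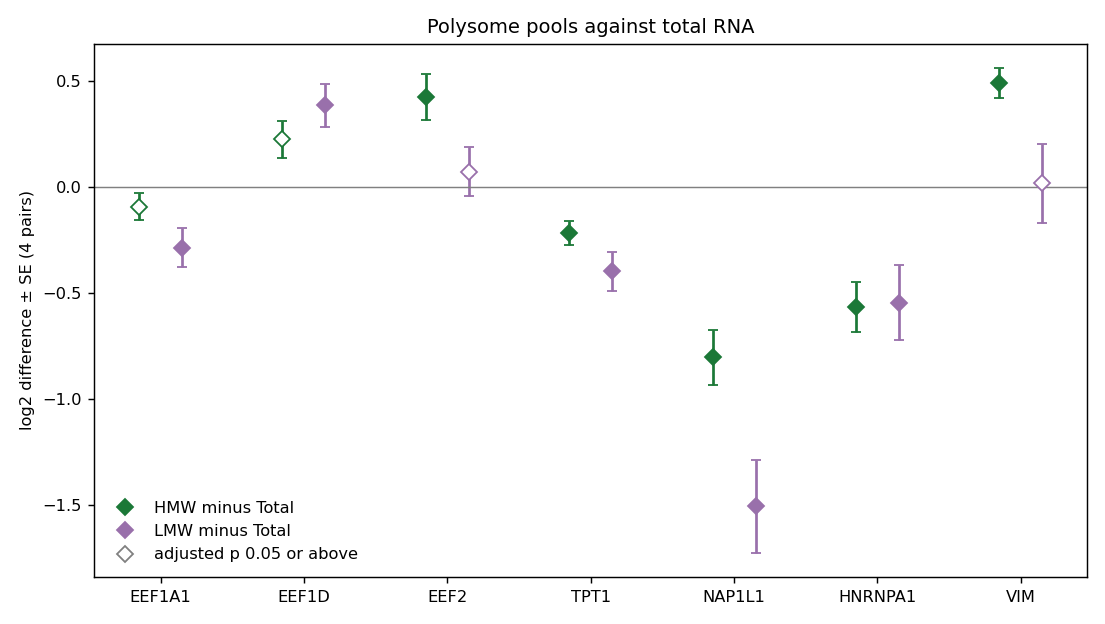
Mean log2 difference (vertical axis) of HMW minus Total and LMW minus Total for the 7 genes over 4 pairs, with bars of 1 SE, filled where the adjusted p was under 0.05. NAP1L1 lies lowest at −0.80 and −1.51, and EEF2 and VIM are above 0 in HMW at 0.42 and 0.49.

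Other genes of the translation machinery gave a frame for these values, read against the 17.4% of all genes called higher and 18.6% called lower in HMW than in Total (2446 and 2433 of 10157 at an unadjusted p under 0.05). Of 51 kept ribosomal protein genes 2 were called higher and 35 lower in HMW than in Total, with a median of −0.36, against −0.09 for the 7 genes and 0.03 for all genes. RPS12 fell by 1.07 there and RPL36 by 0.92, whereas RPL27A rose by 0.68 and RPLP2 by 0.69, all 4 of them ribosomal subunit proteins. Of 13 other TOP mRNAs none was called higher and 3 lower by limma (none and 3 at an unadjusted p under 0.05), with a median of −0.00. NACA, which guides nascent chains at the ribosome, fell by 0.72 and PABPC1, the poly(A)-binding protein, by 0.56. Of 12 other elongation and termination factors 3 were called higher and none lower (5 and none at an unadjusted p under 0.05), among them EEFSEC, the selenocysteine elongation factor (1.06, adjusted p = 0.00963), and ABCE1, which recycles ribosomes (0.66, adjusted p = 0.0495). The 3 of 13 called lower and the 3 of 12 called higher lie near those shares. Of 19 regulators of TOP translation 6 were higher and 1 lower. MTOR, the kinase itself, rose by 1.36, TSC2, its upstream inhibitor, by 1.52, and RHEB, its activator, fell by 0.87. Also among the 2 lowest of their lists, RPS6KB1 (−0.90, adjusted p = 0.0655), EIF5A2 (−0.38, adjusted p = 0.152) and DPH5 (−0.24, adjusted p = 0.313) were not called by limma. Nor were EIF3G (0.46, adjusted p = 0.105) and EIF3A (0.32, adjusted p = 0.453), the 2 highest of the other TOP mRNAs. In HMW relative to LMW, 1991 of 10157 genes were called higher and 2143 lower. Of the 13 other TOP mRNAs 5 were called higher there and 3 lower, the 3 near that share (median 0.30, against −0.06 for all genes). EIF3A, a core subunit of eIF3, stood at 2.11 (adjusted p = 0.00128), PABPC1 at 0.55 (adjusted p = 0.00509) and EIF3G, another eIF3 subunit, at −0.41 (adjusted p = 0.0293). Of the ribosomal proteins 1 was higher and 3 were lower there. Relative to Total 4 of them were higher and 23 lower in LMW, where 2893 and 2857 of all genes were. Over the 639 kept genes with a TOP start, 16.0% were called higher and 22.8% lower in HMW than in Total, against 17.5% and 18.4% of the 7770 without one, with medians of −0.03 and 0.02.

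To see how the mRNAs themselves differed with genotype, knockdown and WT cells were compared within each preparation. The fit had 10 Gy as a second term, on 4 arrays each. In Total 4 of the 7 genes were called, 3 higher and 1 lower, where 40.5% of all genes were called (20.7% higher and 19.8% lower), so the count lies near the background. EEF2 was 13.91 and 13.86 in knockdown cells, against 13.65 and 13.52 in WT cells (rose by 0.30, SE 0.0476, adjusted p = 0.000899). HNRNPA1 was 11.69 and 11.63, against 11.49 and 11.25 (rose by 0.29, adjusted p = 0.0156), and EEF1D 13.33 and 13.39, against 13.17 and 13.17 (rose by 0.20, adjusted p = 0.0136). VIM was 12.76 and 12.72 in knockdown cells, against 13.26 and 13.16 in WT cells (fell by 0.47, adjusted p = 0.000151). In each of these 4 genes the knockdown and WT values did not overlap. A fit of all 12 arrays called none of the 4 (adjusted p = 0.0600 to 0.652), and EEF1D was called under 3 of 7 alternatives. Without the trend the adjusted p was 0.0667 for EEF2 and 0.0833 for HNRNPA1. The median of the probe sets gave −0.31 for VIM (adjusted p = 0.0625) and 0.62 for HNRNPA1 (adjusted p = 0.00300). In Total that HNRNPA1 median is probe set 222040_at, which passed the filter through the Total arrays alone. EEF1A1, TPT1 and NAP1L1 differed by 0.02, −0.01 and 0.02 in Total, with adjusted p-values of 0.665, 0.916 and 0.868. Of the 51 ribosomal protein genes 27 rose and none fell in Total (28 and none at an unadjusted p under 0.05), with a median of 0.14, against 0.03 for all genes.

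NAP1L1 depended on the probe set. In Total the 4 brightest of its 7 probe sets differed between knockdown and WT cells by −0.12 to 0.15 in either treatment. Probe set 208754_s_at was 8.87 and 8.88 in knockdown cells, against 9.94 and 9.86 in WT cells, and 208753_s_at was 8.70 and 8.68, against 9.87 and 10.12. Probe set 1556121_at was 5.08 and 5.33, against 6.69 and 6.90, and it reached the filter level of 6 on 4 of the 12 arrays, all of WT cells. The knockdown values of 1556121_at lie below that level, so no size or test is given for it. The 3 dimmer probe sets were therefore all lower in knockdown cells while the brighter 4 differed little. EEF1A1 likewise was lower by its dimmer probe set 227708_at, at 8.78 and 8.67 in knockdown cells, against 9.15 and 9.09 in WT cells (−0.39, adjusted p = 0.0115).

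In the polysome pools 1 gene each was called, near the background. In LMW only EEF2 was called among the 7 genes, against 15.4% of all genes (10.3% higher), at 14.17 and 14.06 in knockdown cells, against 13.36 and 13.63 in WT cells (rose by 0.62, SE 0.139, adjusted p = 0.000243, and 0.336 without the trend). In HMW only VIM was called, against 9.90% of all genes (4.09% lower), at 13.18 and 13.24 in knockdown cells, against 13.76 and 13.68 in WT cells (fell by 0.50, adjusted p = 0.0236). With 1 residual degree of freedom limma pooled the spread wholly over genes in both pools, and the VIM call held under 3 of 7 alternatives. Of the 51 ribosomal protein genes 8 fell and none rose in LMW by limma, where 518 of 10157 genes fell and 1047 rose. At an unadjusted p under 0.05 it was 16 and none, where 1115 and 1694 of all genes did. None of the 51 was called in HMW (3 at an unadjusted p under 0.05, all higher, where 1118 of all genes were higher).

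The heavy-to-light difference itself was called between knockdown and WT cells for 2 of the 7 genes, EEF2 and VIM, both lower in knockdown cells. Of all genes 15.8% were called (10.5% lower). For EEF2, HMW minus LMW was −0.15 and 0.06 in knockdown cells (10 Gy and mock), against 0.80 and 0.70 in WT cells. Knockdown cells lay lower than WT cells by 0.95 with 10 Gy and by 0.64 with mock (mean −0.80, SE 0.108, adjusted p = 1.72e-05). The second EEF2 probe set, 200094_s_at, gave −0.08 and −0.02, against 0.77 and 1.05. For VIM it was 0.02 and 0.05 in knockdown cells, against 1.03 and 0.80 in WT cells (mean −0.88, SE 0.130, adjusted p = 4.25e-05). In both genes the knockdown pairs lay near 0 and the WT pairs between 0.70 and 1.03, with no overlap. Both limma p-values rest mostly on the spread of other genes (27.1 prior against 1 residual degree of freedom). A fit of all 12 arrays with condition as a random block called neither (adjusted p = 0.0924 for each) nor any other gene, and without an intensity trend the adjusted p was 0.0784 for EEF2 and 0.0572 for VIM. Taking the median of both VIM probe sets, of which the second is dim, gave −0.26 (adjusted p = 0.564).

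The other 5 genes were not called. TPT1 gave 0.34 and 0.31 in knockdown cells, against −0.05 and 0.12 in WT cells (0.29, adjusted p = 0.0564). NAP1L1 was 1.03 and 0.88, against 0.16 and 0.74 (0.51, adjusted p = 0.125), EEF1D −0.26 and −0.28, against −0.03 and −0.07 (−0.22, adjusted p = 0.214), and EEF1A1 0.14 and 0.19, against 0.19 and 0.26 (−0.06, adjusted p = 0.746). HNRNPA1 gave 0.29 and −0.10, against −0.30 and 0.04, so its pairs overlapped. Of the ribosomal proteins, on the same contrast, 19 of 51 were called higher and none lower, where 541 of 10157 genes were called higher and 1068 lower. At an unadjusted p under 0.05 it was 26 and none, where 1203 and 1752 of all genes were. Of the 51, 49 were above 0, and the median was 0.24, against −0.01 for all genes. Among those, RPS12 rose by 0.78 (adjusted p = 0.000303). Median HMW minus LMW over the ribosomal proteins was 0.05 and 0.09 in knockdown cells, against −0.25 and −0.19 in WT cells. Of 13 other TOP mRNAs 1 was called higher, NACA (0.52, adjusted p = 0.0142). Of 12 elongation and termination factors 1 was called lower, GSPT1 (−0.82, adjusted p = 0.00391). Of 19 regulators 2 were lower, TSC2 (−1.92, adjusted p = 4.88e-05) and LARP1 (−0.61, adjusted p = 0.0207). The counts of these last lists lie near the shares of all genes called. GSPT1 and LARP1 were named after their values were seen.

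**Figure D4:**
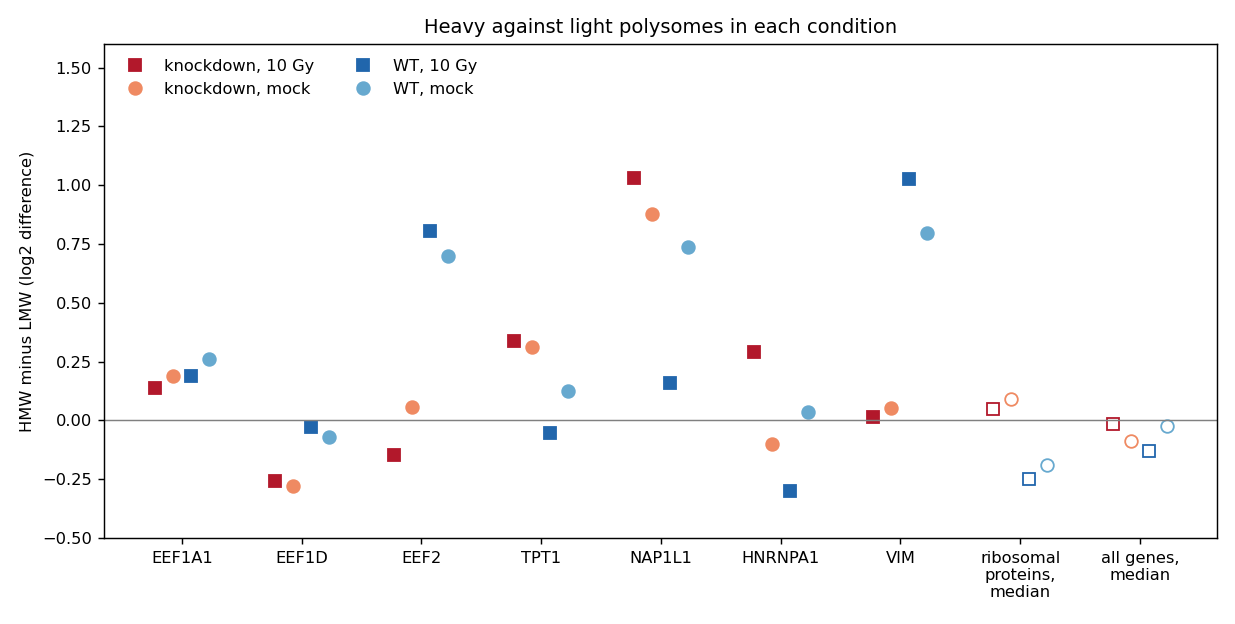
HMW minus LMW (log2 difference, vertical axis) in each condition for the 7 genes and, as open symbols, the median of 51 ribosomal protein genes and of all kept genes. For EEF2 and VIM the WT points lie at 0.70 to 1.03 and the knockdown points at −0.15 to 0.06.

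**Figure D5:**
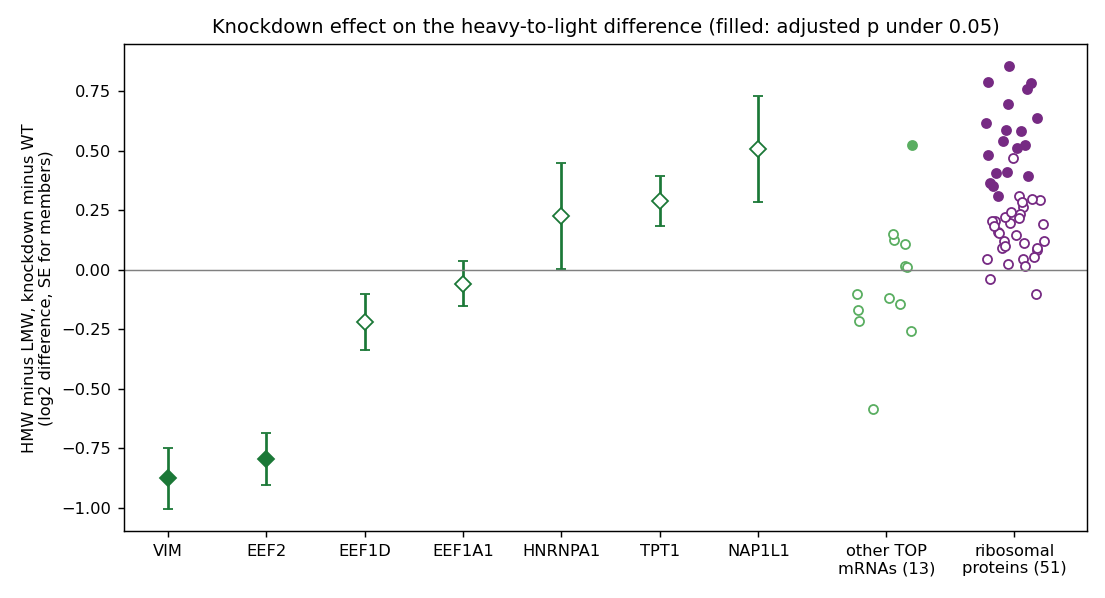
Knockdown minus WT of the HMW minus LMW difference (log2, vertical axis), with bars of 1 SE for the 7 genes and single points for 13 other TOP mRNAs and 51 ribosomal protein genes, filled where the adjusted p was under 0.05. VIM and EEF2 lie at −0.88 and −0.80, and 49 of the 51 ribosomal proteins lie above 0.

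In order to see whether irradiation moved these mRNAs, 10 Gy was compared with mock, with the knockdown as a second term. None of the 7 genes was called by limma in Total, LMW, HMW or the heavy-to-light difference, where 0.177%, 0.374%, 0.473% and 0% of all genes were called. None of the 7 reached an unadjusted p under 0.05 in any of them either, where 1305, 798, 852 and 578 of 10157 genes did. Those shares are small, so none among 7 genes lies near the background. In Total the 10 Gy and mock arrays of the same genotype differed by −0.06 to 0.10 in knockdown cells and −0.04 to 0.24 in WT cells over the 7 genes.

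The polysome pools differed more after 10 Gy in WT cells than in knockdown cells, with 1 array against 1 and no test. In LMW, NAP1L1 was 10.31 with 10 Gy against 10.64 with mock in knockdown cells, and 11.37 against 10.19 in WT cells. TPT1 was 13.88 against 13.88 in knockdown cells and 14.21 against 13.90 in WT cells, and HNRNPA1 was 10.93 against 11.11 and 11.23 against 10.60. In WT LMW 3 of the 7 genes lay the other way, with EEF2 at 13.36 with 10 Gy against 13.63 with mock, VIM at 12.73 against 12.88 and EEF1D at 13.54 against 13.66. All 7 NAP1L1 probe sets were lower with 10 Gy in knockdown LMW, with differences of −0.74 to −0.22, and higher in WT LMW, with differences of 1.07 to 2.02. Among the 7, 1556121_at read mostly below the filter level of 6 in LMW and adds no support. Over all kept genes 20.1% went beyond 2-fold between the WT light pools and 1.33% between the knockdown ones, and 18.0% and 0.847% between the heavy pools. The mock-treated WT pools are those that stood apart from the other arrays, and the part of this in the difference was not tested.

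Over the 12 arrays NAP1L1 and TPT1 had the closest profiles (Pearson r = 0.98), EEF1D ran against both (−0.91 with NAP1L1 and −0.92 with TPT1), and EEF2 went with VIM (0.63). These are descriptions over 12 arrays that share preparations and conditions. The mean centred profile of the 7 was closest to EEF1A1 among them (0.93) and furthest from EEF1D (−0.73). Of the genes outside the set, SLFN12 (0.97), MFN1 (0.95), EIF2A (0.95), EIF3H (0.95) and TAF4 (0.95) had the most similar profiles, and of these EIF2A, an initiation factor, fell by 1.18 in LMW relative to Total and rose by 1.02 in HMW relative to LMW. EIF3H, a subunit of eIF3, fell by 0.91 and rose by 0.57 in those comparisons.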

How the data were processed

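Human mRNA was measured on 12 arrays of 54675 probe sets. The values deposited by the authors are linear intensities, made with RMA per the submitters' processing notes, of a version and with settings that those notes do not state. They ran between 4.29 and 26385, with none missing, and were turned to log2. The number of arrays limits the precision. Of the probe sets, 41097 carried 1 symbol, 1801 several and 11777 none, and only the first were used.

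Tests used limma 3.58.1 in R 4.3.3 (eBayes with an intensity trend) and Benjamini-Hochberg adjustment over 10157 genes. Preparations were compared over 8 arrays with condition as a block, which leaves 3 residual degrees of freedom. Knockdown and 10 Gy were fitted as additive terms on 4 arrays, or on the 4 heavy-to-light differences, which leaves 1. The 10 Gy response within a genotype was not tested. In all 11 comparisons were made. The methods were tested on simulated data.

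The genes, the lists and the tests were chosen with earlier results of these data known. Named were the 10 genes, EIF4G1, in each list the 2 highest and 2 lowest of HMW minus Total, and the 5 most similar profiles. Alternatives were the filter, the probe set, the scaling, the variance model, the block, 1 fit of all 12 arrays, and leaving out each condition's pair.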

Additional observations from a re-analysis of the deposited data

Results flagged for a closer look

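For EEF2 the heavy-to-light difference differed between genotypes by the test of the difference itself, with knockdown minus WT at −0.80 (adjusted p = 1.72e-05, limma), lower in 2 of 2 pairs. VIM gave −0.88 (adjusted p = 4.25e-05, limma), also lower in 2 of 2 pairs. For NAP1L1 the light polysome value after 10 Gy moved in opposite directions, at −0.32 in knockdown cells and 1.18 in WT cells, 1 array against 1 in each, and this difference was not tested.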

How the results depend on the processing

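Of the 184 tests that repeated the 19 called values of the 7 genes under an alternative, 137 stayed called and 47 did not, all in the same direction. Among those that stayed, 4 compare HNRNPA1 polysome values below the filter level with Total and carry no exact size. Without _x_at and _s_at probe sets, NAP1L1 also stayed called for HMW minus LMW and for LMW minus Total. Those readings come from 1556121_at, whose polysome values lay mostly below the filter level, and carry no exact size either. Of 472 repeats of the 58 uncalled values, 11 became called in the same direction. Leaving out probe sets ending in _x_at or _s_at turned 3 values of the knockdown negative. EEF1A1 in Total was −0.39 there (adjusted p = 0.0115), read from a dimmer probe set. NAP1L1 was −1.59 in Total and −1.24 in HMW, read from 1556121_at, which passed the filter through 4 WT arrays and lay below it on all knockdown arrays, so these count as no call.

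Counts of called genes moved by more than 1.5 times as follows. HMW minus LMW gave 4134, 55 without the condition block and 2283 to 4593 with a pair left out (2283 without mock-treated WT cells, 2441 without mock-treated knockdown cells). HMW minus Total gave 3657, 2321 without _x_at and _s_at probe sets and 1659 to 4496 with a pair left out (1659 without irradiated WT cells, 2286 without mock-treated knockdown cells), and LMW minus Total 5750, 10570 without a filter and 4334 to 5488 with a pair left out. The knockdown gave 4113 in Total (2692 with the median of probe sets, 240 in the fit of 12 arrays), 1565 in LMW and 1006 in HMW (943 and 575 without _x_at and _s_at). On the heavy-to-light difference it gave 1609, and 765 with the median, 548 without _x_at and _s_at, 564 with loess, 957 without a trend and 0 with 12 arrays. 10 Gy in Total gave 18, and 39 without a filter, 46 with a filter at 7, 6 with the median, 6 without _x_at and _s_at, 134 centred, 154 with loess, and 0 without a trend or with 12 arrays. In LMW it gave 38, and 24 without a filter, 3 at 7, 15 with the median, 8 without _x_at and _s_at, 6 centred, 8 with loess and 0 with 12 arrays. In HMW it gave 48, and 124 without a filter, 20 at 7, 15 with the median, 7 centred and 0 with 12 arrays, and on the heavy-to-light difference 0, and 4 without a filter. The causes were not tested.

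The knockdown comparisons cannot be tested without the pools of mock-treated WT cells, since only the 10 Gy pair then remains. The number of arrays sets what these comparisons can show.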
